A study of Homo sapiens with 4 samples.

Results

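DNA repair genes of 3 connected pathways were followed in KP4 cells, an established pancreatic ductal adenocarcinoma (PDAC) cell line, with and without FOLFIRINOX. They were 39 named genes of interstrand crosslink repair, homologous recombination and excision repair, taken by symbol from a table of 60651 genes. Of these, 15 were recombination genes, 11 Fanconi genes, 10 excision repair genes and 3 were a crosslink nuclease and lesion bypass genes, and all 39 passed the filter on low counts. Each gene was counted under 1 role, although some belong to more, such as BRIP1 (FANCJ), counted under recombination. Counts by role depend on this division, and no other was tried. RNA sequencing covered 4 groups, each of 1 GEO sample with 3 library columns. The groups were control cells under vehicle (DMSO), control cells under FOLFIRINOX, E5 cells under vehicle and E5 cells under FOLFIRINOX, each for 96 h. FOLFIRINOX was given here as 25 nM SN-38, 10 µM of the agent labelled 5-F and 5 µM oxaliplatin. The medium, DMEM with 10% FBS, was the same throughout. The series title contrasts control KP4 cells with resistant ones, and its design text speaks of KP4 cells after 5 cycles of DMSO or FOLFIRINOX. The labels give E5 only as a name, state no clone or pool, and do not say whether the 3 columns of a group are separate cultures. The p-values therefore measure the spread between these columns, which may be technical.

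Oxaliplatin links bases within a strand and, more rarely, between strands, SN-38 traps topoisomerase I on DNA, and fluoropyrimidines disturb nucleotide supply. Crosslinks between strands are handled by the Fanconi pathway. A core complex with the E2 enzyme UBE2T and the ligase FANCL attaches ubiquitin to FANCD2 and FANCI, and nucleases held on the SLX4 scaffold then cut the crosslink free. Homologous recombination mends the resulting break. The MRE11, RAD50 and NBN complex with RBBP8 (CtIP) starts to trim the ends and EXO1 extends the trimming. BRCA1, PALB2 and BRCA2 then load the recombinase on the DNA. Nucleotide excision repair opens the helix with the TFIIH helicases ERCC2 (XPD) and ERCC3 (XPB), cuts on both sides with ERCC5 (XPG) and ERCC4-ERCC1, and acts on crosslinks within a strand.

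Promoter windows of 5 genes are printed because these genes carried the main changes: RAD18 rose, and SLX4 and ERCC2 fell, by at least 1.5-fold under FOLFIRINOX in both lines, while ERCC6 and BRCA2 differed most between the lines under vehicle. Each window runs from 250 bases before to 50 bases after a transcription start, 5′ to 3′ on the gene's strand, from RefSeq on GRCh38.p14. Where a gene has several windows, the one nearest to the gene start in the deposited table was used. Capitals mark matches on either strand to TTTGAA or TTCGAA (cell cycle homology region, CHR), CCAAT, the E2F letters TTTCCCGC, TTTGGCGC, TTTCGCGC or TTTGCCGC, and GGGCGG (SP1). The windows are chr3:8963423-8963722 (minus strand) for RAD18, chr16:3611557-3611856 (minus) for SLX4, chr19:45370524-45370823 (minus) for ERCC2, chr10:49539489-49539788 (minus) for ERCC6 and chr13:32315258-32315557 (plus) for BRCA2.
RAD18: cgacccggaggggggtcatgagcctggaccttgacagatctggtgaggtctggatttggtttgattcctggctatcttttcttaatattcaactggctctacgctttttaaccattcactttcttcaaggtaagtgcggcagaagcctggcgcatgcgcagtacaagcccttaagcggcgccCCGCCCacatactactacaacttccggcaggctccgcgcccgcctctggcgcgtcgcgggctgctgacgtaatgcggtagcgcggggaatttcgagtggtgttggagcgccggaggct
SLX4: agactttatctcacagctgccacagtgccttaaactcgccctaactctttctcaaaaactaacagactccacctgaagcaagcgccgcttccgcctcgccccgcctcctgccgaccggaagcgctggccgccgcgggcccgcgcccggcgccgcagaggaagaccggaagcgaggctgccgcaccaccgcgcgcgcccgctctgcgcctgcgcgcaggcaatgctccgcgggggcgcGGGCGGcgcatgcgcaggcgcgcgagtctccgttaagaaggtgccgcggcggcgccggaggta
ERCC2: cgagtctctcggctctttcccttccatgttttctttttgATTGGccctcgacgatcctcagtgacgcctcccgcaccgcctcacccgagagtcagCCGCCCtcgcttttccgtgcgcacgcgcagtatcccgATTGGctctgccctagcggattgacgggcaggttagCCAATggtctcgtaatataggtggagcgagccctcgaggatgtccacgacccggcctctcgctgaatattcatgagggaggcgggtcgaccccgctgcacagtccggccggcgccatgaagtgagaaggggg
ERCC6: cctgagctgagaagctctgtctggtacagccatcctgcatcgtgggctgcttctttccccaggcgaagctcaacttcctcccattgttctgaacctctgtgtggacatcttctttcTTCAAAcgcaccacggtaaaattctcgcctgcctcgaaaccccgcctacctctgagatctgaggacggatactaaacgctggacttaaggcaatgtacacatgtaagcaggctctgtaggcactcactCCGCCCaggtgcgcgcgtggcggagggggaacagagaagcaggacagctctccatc
BRCA2: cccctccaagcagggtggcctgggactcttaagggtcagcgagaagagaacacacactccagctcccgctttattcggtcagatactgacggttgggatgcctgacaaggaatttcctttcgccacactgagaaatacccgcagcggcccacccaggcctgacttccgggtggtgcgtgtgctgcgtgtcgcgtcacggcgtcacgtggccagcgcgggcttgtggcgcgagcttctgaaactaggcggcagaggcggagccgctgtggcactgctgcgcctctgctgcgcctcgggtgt
The RAD18 and SLX4 windows each hold 1 GGGCGG match and no other of these letters. The ERCC2 window holds 3 CCAAT matches and 1 GGGCGG match, the ERCC6 window 1 CHR match and 1 GGGCGG match, and the BRCA2 window none. A window was matched for 35 of the 39 genes and for 10871 tested genes. GGGCGG occurred in 27 of the 35 windows (77.1%) against 70.1% of all windows, and CCAAT in 12 (34.3%) against 37.0%. CHR letters occurred in 4 (11.4%) against 11.2%. The E2F letters occurred in 4 windows (11.4%) against 5.52% of all windows, and the 4 were EXO1, FANCA, FANCC and FANCD2. EXO1 rose under FOLFIRINOX in both lines, FANCA fell in both, and FANCC and FANCD2 fell in control cells and were not called in E5 cells.

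Gene reads ranged from 7359034 to 21775030 per library. The labelled cell type was checked against its markers on the FPKM scale (fragments per kilobase of transcript, scaled for depth). The keratins KRT8 and KRT18 were present at 31.1 to 251 and 118 to 514 FPKM. EPCAM and CDH1 stayed between 0.05 and 1.23, and KRT19 between 0 and 4.86. KRT7, SOX9 and MUC1 lay at 1.05 to 11.6, 10.0 to 29.5 and 0.77 to 3.34. Of these 8 ductal markers, 7 were at least 1.5-fold higher in untreated E5 than control cells, against 11.6% of all tested genes. The mesenchymal gene VIM lay between 979 and 1424, but CDH2, ZEB1 and FN1 at 14.7 to 30.5, 6.39 to 20.8 and 0.99 to 5.65. Of 10 markers of other cell types, 4 passed the filter on counts, and CD3E, INS and PRSS1 were listed at 0 in every library. Their summed level was 19.3 to 21.4 FPKM in control cells under vehicle, 62.4 to 78.7 in control cells under FOLFIRINOX, 17.1 to 18.9 in E5 cells under vehicle and 21.4 to 31.1 in E5 cells under FOLFIRINOX. PTPRC (CD45) averaged 11.5 FPKM in control cells under vehicle, 2.71 under FOLFIRINOX and at most 0.01 in E5 cells. CD68 averaged 7.52, 64.7, 12.9 and 23.1 FPKM in the groups as listed above, the largest part of the sum under FOLFIRINOX. It was not among the 4 that passed the filter on counts, so its change was not tested. COL1A1, which passed, averaged 1.36, 1.07, 4.88 and 2.67 FPKM in the same order. The part of these markers in the results below was not tested. In bulk RNA, fewer cells of a type and less RNA per cell cannot be told apart.

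The 39 genes spanned a wide range of levels per transcript length. In control cells under vehicle, RPA1, the large subunit of the single-strand DNA binding complex RPA, was highest at 123 ± 5.34 FPKM (SD, n = 3). RAD51AP1, which helps the recombinase invade the partner duplex, stood at 80.9 ± 5.55 FPKM, UBE2T at 75.5 ± 1.46 and RPA3 at 75.3 ± 3.29. These 3 did not differ beyond their spread. At the low end stood FANCF at 3.48 ± 0.122, the nuclease scaffold SLX4 at 3.92 ± 0.21 and FANCE at 4.50 ± 0.116 FPKM. FANCF and FANCE are adaptors of the Fanconi core complex. Among the recombination genes, BRCA2 was lowest at 6.24 ± 1.80 FPKM, against 32.1 ± 2.89 for BRCA1 and 10.1 ± 0.805 for PALB2.

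**Figure D1:**
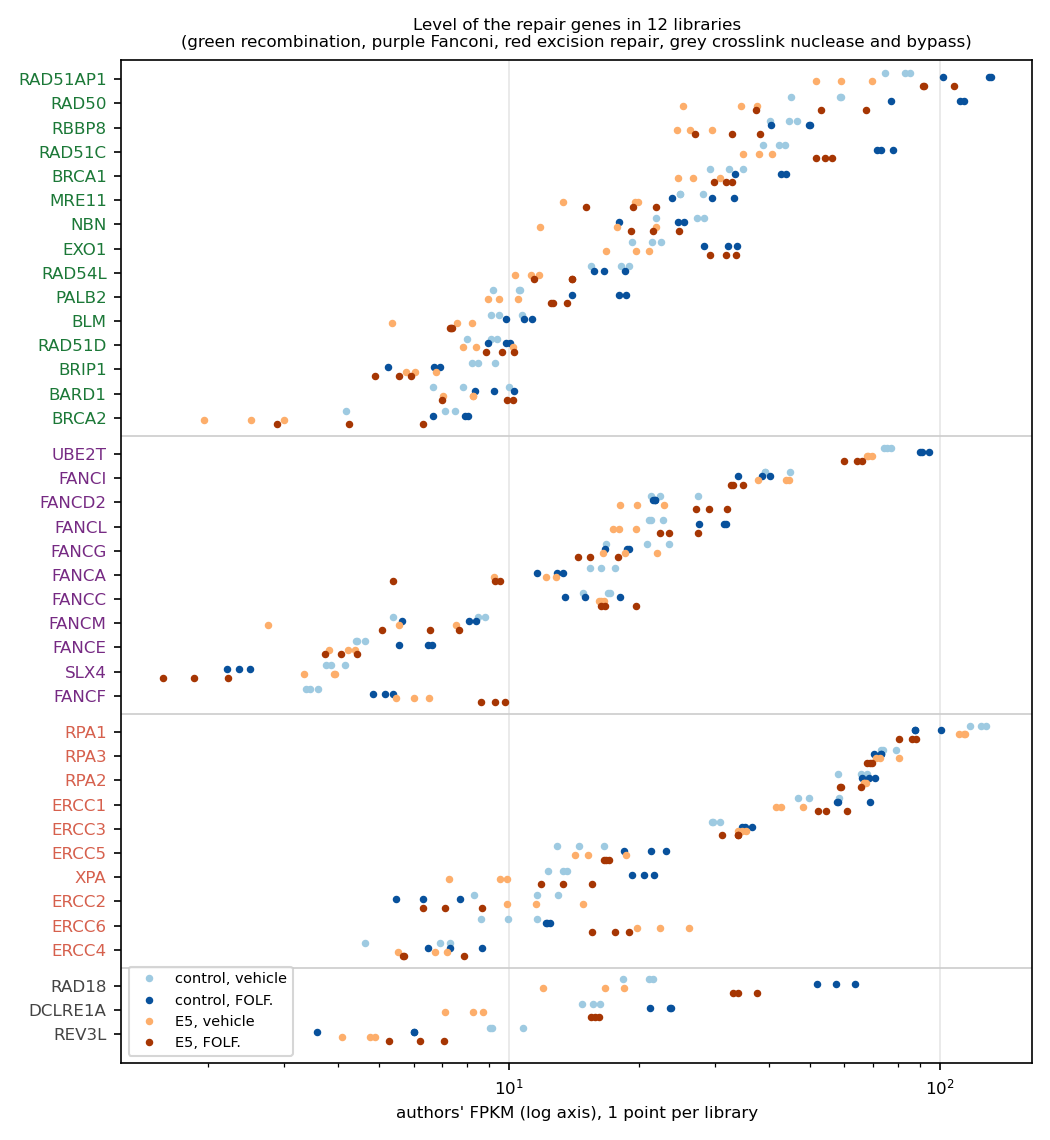
Authors' FPKM (log axis) of the 39 genes, 1 point per library, in 4 groups of 3 libraries, ordered within each role by the mean in control cells under vehicle. The RPA subunits, UBE2T and RAD51AP1 sat near the top, SLX4, FANCF and BRCA2 near the bottom, and RAD18 lay higher under FOLFIRINOX in both lines.

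FOLFIRINOX in control cells moved the repair genes in both directions. By edgeR's quasi-likelihood test with Benjamini-Hochberg adjustment over 15636 genes, 12 of the 39 rose and 13 fell, against 32.6% of all tested genes higher and 32.7% lower. With a change of at least 1.5-fold, 3 rose (RAD18, PALB2 and RAD51C) and 3 fell (REV3L, SLX4 and ERCC2), against 19.7% and 17.9% of all genes. The first pair of shares lies near the background and the second under it. By role, 5 of 15 recombination genes rose and 3 fell, 3 of 11 Fanconi genes rose and 6 fell, and 2 of 10 excision repair genes rose and 3 fell. Without library 3 of control vehicle or 3 of control FOLFIRINOX, 3 recombination genes rose. Of the crosslink nuclease and bypass genes, DCLRE1A and RAD18 rose and REV3L fell. Median log2 fold changes were 0.03 for recombination, -0.29 for Fanconi and -0.06 for excision repair genes, against 0.0044 over all tested genes. On the authors' FPKM, whose median over genes shifted by 0.14 (log2) in this comparison, the split of the 39 became 16 higher and 5 lower and the Fanconi split 4 higher and 1 lower. With libraries scaled by total counts alone the 39 split into 14 higher and 10 lower. The excision repair median turned to 0.07 with total counts and to 0.23 on log2(FPKM + 1).

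In E5 cells FOLFIRINOX raised 10 of the 39 genes and lowered 10, against 25% and 27.3% of all tested genes. At least 1.5-fold, 4 rose (DCLRE1A, RAD18, RAD51AP1 and RAD50) and 2 fell (SLX4 and ERCC2), against 12.2% and 11.6%. Of the recombination genes, 5 of 15 rose and 0 fell, with a median log2 fold change of 0.25. At an unadjusted p under 0.05, edgeR had 9 higher and 0 lower, and DESeq2 called 7 higher and 0 lower, while the GC correction described below gave 6 higher and 3 lower. The count of 5 became 8 without library 1 of E5 FOLFIRINOX, and 9 without library 2 of control FOLFIRINOX or with total counts. Of the Fanconi genes, 2 of 11 rose and 4 fell (median -0.07), and of the excision repair genes 1 of 10 rose and 6 fell (median -0.26), or 3 fell on log2(FPKM + 1). The 6 were ERCC2, ERCC3, ERCC6, RPA1, RPA2 and RPA3, and the RPA subunits were counted under excision repair only. The median over all tested genes was 0.0034. On log2(FPKM + 1) the 39 split into 13 higher and 6 lower, and with total counts into 15 higher and 7 lower.

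The responses of the 2 lines come from separate libraries and can be set side by side. Of the 39 genes, 10 rose in both lines, 6 fell in both, 0 passed the test in opposite directions, 13 were called in 1 line and 10 in neither. Of all tested genes, 19.1% rose in both, 20.8% fell in both and 1.84% moved in opposite directions. Across genes the log2 fold changes of the lines had a Spearman rho of 0.72 (n = 39) and of 0.71 over all 15636, as a description, since genes are not independent replicates.

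**Figure D2:**
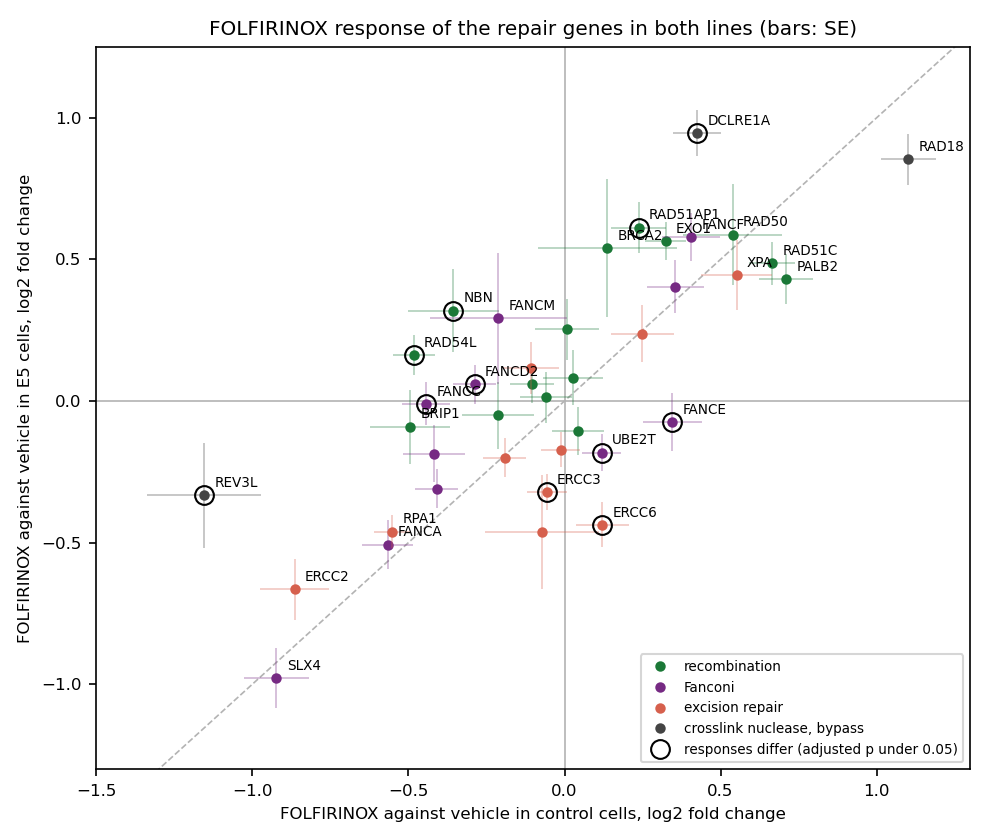
Log2 fold change under FOLFIRINOX in control cells (x axis) and E5 cells (y axis) for the 39 genes, with SE bars and the line of equality dashed. RAD18 lies at the upper right and SLX4 and ERCC2 at the lower left, and ringed points are the 11 genes whose responses differed between the lines.

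RAD18 had the largest rise of the 39 in control cells and the second largest, after DCLRE1A, in E5 cells. It is the E3 ligase that marks the PCNA clamp at stalled forks, calling in bypass polymerases. In control cells it went from 74.3, 75.7 and 73.1 CPM (counts scaled to library size with TMM) under vehicle to 165, 145 and 170.0 under FOLFIRINOX, a log2 fold change of 1.10 ± 0.088 (SE, n = 3 per group, edgeR adjusted p = 1.22e-08), or 2.15-fold. In E5 cells it went from 48.3, 65.1 and 61.6 to 102, 109 and 108 CPM, 1.81-fold higher (log2 0.85 ± 0.09, adjusted p = 7.58e-07). In both lines every treated library lay above every vehicle library. The E5 libraries stayed below the control libraries under the same treatment, with log2 fold changes of -0.34 ± 0.091 under vehicle and -0.59 ± 0.087 under FOLFIRINOX.

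DCLRE1A (SNM1A) is an exonuclease that can digest past a crosslink after it has been cut on one strand. It stood at 76.5, 76.5 and 70.9 CPM in control cells under vehicle and at 107, 89.9 and 105 under FOLFIRINOX. In E5 cells under vehicle it was lower, at 35.6, 41.4 and 38.7 CPM, and under FOLFIRINOX it reached 70.9, 77.6 and 76.1. The E5 libraries under FOLFIRINOX overlapped the control libraries under vehicle. The rise was 0.42 ± 0.077 (log2) in control cells and 0.95 ± 0.081 in E5 cells, and the difference of 0.52 ± 0.11 passed the interaction test (edgeR adjusted p = 0.00276).

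REV3L is the catalytic subunit of the bypass polymerase zeta. It stood at 78.2, 89.1 and 68.7 CPM in control cells under vehicle and 39.9, 26.5 and 41.0 under FOLFIRINOX, 2.23-fold lower (log2 -1.15 ± 0.18, adjusted p = 3.21e-05). In E5 cells it stood at 39.6, 45.1 and 52.9 under vehicle and 25.6, 39.0 and 45.8 under FOLFIRINOX, which overlap (log2 -0.33 ± 0.19, adjusted p = 0.146). The direction turned on the authors' FPKM, with 4.09, 4.88 and 4.75 under vehicle and 5.26, 7.07 and 6.20 under FOLFIRINOX, a log2 difference of 0.36 on log2(FPKM + 1) that limma did not call (adjusted p = 0.0942). The responses differed by 0.82 ± 0.26 (adjusted p = 0.0285), a call that DESeq2 did not make and that ended without library 2 (0.72) of control vehicle, 2 (0.63) of control FOLFIRINOX, 1 (0.74) or 2 (0.81) of E5 vehicle or 2 (0.78) or 3 (0.64) of E5 FOLFIRINOX, where values in brackets are the log2 difference with that library left out. Under vehicle, REV3L was 1.71-fold lower in E5 than in control cells, and under FOLFIRINOX the lines overlapped.

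Among the recombination genes, PALB2 and RAD51C rose in both lines. PALB2 bridges BRCA1 and BRCA2. It went from 30.6, 33.8 and 33.5 to 58.3, 46.4 and 57.1 CPM in control cells (log2 0.71 ± 0.086, edgeR adjusted p = 1.76e-06) and from 29.7, 29.4 and 29.8 to 40.2, 42.2 and 37.5 CPM in E5 cells (0.43 ± 0.09, adjusted p = 0.000686). RAD51C belongs to the paralogue complexes that help form the recombinase filament. Its control libraries went from 37.1, 38.5 and 36.5 to 65.3, 55.7 and 58.0 CPM (0.66 ± 0.075) and its E5 libraries from 36.7, 33.7 and 36.3 to 50.4, 46.7 and 51.8 (0.49 ± 0.076). No treated library of either gene overlapped a vehicle library of its line. RAD51D, another paralogue, did not pass the test in either line (-0.10 ± 0.07 and 0.061 ± 0.069), and 8.87% of its exonic bases lie in another gene on the same strand.

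EXO1, the resection nuclease, stood at 65.9, 70.6 and 66.9 CPM in untreated control cells and 90.9, 77.3 and 87.5 under FOLFIRINOX, a log2 fold change of 0.32 ± 0.067. In E5 cells the change was 0.56 ± 0.068, from 59.9, 62.4 and 61.1 to 90.0, 90.2 and 91.3 CPM. The groups did not overlap in either line. RAD51AP1 rose by 0.24 ± 0.089 (log2) in control cells and by 0.61 ± 0.091 in E5 cells, from 76.7, 92.1 and 91.2 to 120.2, 128 and 151 CPM in the latter. The call in control cells (adjusted p = 0.0273) ended when no filter on low counts was used, and without library 1 (0.23) or 3 (0.20) of control vehicle or 1 (0.21) or 3 (0.20) of control FOLFIRINOX.

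Of the end-trimming complex, RAD50, the ATPase that tethers the ends, was higher under FOLFIRINOX by 0.54 ± 0.16 (log2) in control cells and 0.59 ± 0.18 in E5 cells, and the call in control cells ended without library 3 (0.38) of control vehicle or 3 (0.40) of control FOLFIRINOX. Its counts are uncertain, since 79.7% of its exonic bases in GENCODE v29 lie in a gene on the same strand, AC116366.3, with which reads can be ambiguous. RAD50 stood at 49 to 417 reads per library, but at 25.3 to 114 FPKM. MRE11, the nuclease of the complex, did not pass the test in either line (-0.21 ± 0.12 and -0.051 ± 0.12). NBN, its signalling subunit, was called lower in control cells (-0.36 ± 0.15, adjusted p = 0.0401), but total count scaling and FPKM ended that call, as did the fits without library 1 (-0.34) or 2 (-0.28) of control vehicle or 2 (-0.22) of control FOLFIRINOX. In E5 cells NBN had a log2 fold change of 0.32 ± 0.15 (adjusted p = 0.0786). RBBP8, their cofactor, did not pass in either line (0.0079 and 0.25).

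RAD54L, the motor protein that drives strand exchange, responded differently in the lines (0.65 ± 0.10, adjusted p = 0.000165). In control cells it went from 44.9, 40.2 and 42.9 CPM to 30.1, 30.6 and 30.6 (log2 -0.48 ± 0.068, adjusted p = 8.76e-06), and in E5 cells from 28.3, 28.7 and 27.0 to 31.4, 32.0 and 30.6 (log2 0.16 ± 0.07, adjusted p = 0.0623). Untreated control cells were highest, without overlap, and the other 3 groups lay between 27.0 and 32.0 CPM, with E5 cells under FOLFIRINOX above E5 cells under vehicle. On FPKM the treated and untreated libraries overlapped in both lines. The fall in control cells was -0.04 on log2(FPKM + 1), where it was not called. BRIP1 (FANCJ), a helicase partner of BRCA1, fell by 0.49 ± 0.13 in control cells (log2), from 62.5, 61.8 and 52.8 to 46.9, 33.7 and 46.0 CPM. In E5 cells BRIP1 had a log2 fold change of -0.091 ± 0.13, which was not called.

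BRCA1, BRCA2, BARD1 and BLM did not pass the test in either line. BRCA1, the ubiquitin ligase that starts the recombination assembly, had log2 fold changes of 0.027 ± 0.10 and 0.082 ± 0.10, and BARD1, its partner, of 0.044 ± 0.084 and -0.11 ± 0.086. BLM, the helicase that dissolves joined duplexes, had -0.059 ± 0.085 and 0.013 ± 0.089. BRCA2 had the widest error of the 39, with 0.14 ± 0.22 in control cells and 0.54 ± 0.24 in E5 cells (adjusted p = 0.074). On log2(FPKM + 1), where the median over genes had shifted, BRCA1 was called higher in control cells at 0.30.

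Cell cycle markers were set beside these genes. Under FOLFIRINOX 15 of 20 S phase markers fell in control cells and 12 of 20 in E5 cells, with 1 higher in each. Of all tested genes, 32.7% fell and 32.6% rose in control cells, and 27.3% fell and 25% rose in E5 cells. Of the G2 and mitosis markers tested, 7 of 19 rose and 5 fell in control cells, and 1 rose and 7 fell in E5 cells. Median log2 fold changes of the S phase list were -0.41 and -0.26, against 0.03 and 0.25 for the recombination genes. The part of cell cycle distribution in the repair genes' changes was not tested.

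SLX4 fell most of the Fanconi genes in both lines. It went from 32.2, 28.9 and 28.9 to 15.4, 16.9 and 14.7 CPM in control cells, 1.90-fold lower (log2 -0.92 ± 0.10, edgeR adjusted p = 6.97e-07). In E5 cells it went from 30.7, 24.8 and 30.4 to 15.7, 14.7 and 12.6 CPM, 1.97-fold lower (-0.98 ± 0.11, adjusted p = 9.94e-07). The 6 treated libraries lay between 12.6 and 16.9 CPM and the 6 vehicle libraries between 24.8 and 32.2 CPM. FANCA, the scaffold of the core complex, also fell in both lines (log2 -0.57 ± 0.082 and -0.51 ± 0.087), and its call in control cells ended on FPKM.

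FANCF and FANCL rose in both lines. FANCF went from 14.1, 13.6 and 13.4 to 18.1, 17.0 and 19.2 CPM in control cells (0.41 ± 0.092) and from 25.7, 23.8 and 21.6 to 37.4, 32.7 and 35.3 in E5 cells (0.58 ± 0.084). The 4 groups did not overlap, with control vehicle lowest, then control FOLFIRINOX, E5 vehicle and E5 FOLFIRINOX. FANCL, the E3 ligase, rose by 0.36 ± 0.09 and 0.40 ± 0.094. FANCE, which joins the core complex to FANCD2, rose in control cells by 0.35 ± 0.10 but had a log2 fold change of -0.075 ± 0.10 in E5 cells, a difference of -0.42 ± 0.14 (adjusted p = 0.0369). DESeq2 and FPKM did not call that difference, nor did the fits without library 1 (-0.40), 2 (-0.43) or 3 (-0.43) of control vehicle, 1 (-0.37) or 2 (-0.37) of control FOLFIRINOX, 1 (-0.41) or 2 (-0.37) of E5 vehicle or 1 (-0.37) or 3 (-0.39) of E5 FOLFIRINOX.

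FANCD2 and FANCI form the ubiquitylated pair. FANCD2 stood at 98.4, 99.1 and 93.0 CPM in control cells under vehicle and 84.0, 71.6 and 82.9 under FOLFIRINOX (log2 -0.29 ± 0.069). Its E5 libraries stood at 94.3, 96.9 and 91.8 and 98.6, 102 and 94.4 CPM (0.058 ± 0.068, adjusted p = 0.501), and control cells under FOLFIRINOX were the lowest group, without overlap. The responses differed by 0.35 ± 0.10 (adjusted p = 0.0149). FANCI fell in both (log2 -0.41 ± 0.069 in control cells and -0.31 ± 0.069 in E5 cells). The falls of FANCD2 and FANCI in control cells were smaller on log2(FPKM + 1), at -0.11 and -0.13, and not called there. On FPKM, FANCD2 in E5 cells stood at 18.09, 19.84 and 22.83 under vehicle and 27.08, 32.05 and 29.15 under FOLFIRINOX, without overlap. Its control libraries overlapped on that scale, at 23.7 ± 3.25 under vehicle and 21.7 ± 0.147 under FOLFIRINOX (SD).

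Of the remaining Fanconi genes, FANCC and FANCG, both of the core complex, fell in control cells (log2 -0.44 ± 0.077 and -0.42 ± 0.10). Neither passed in E5 cells (-0.01 ± 0.076 and -0.19 ± 0.10), and the responses differed for FANCC (0.43 ± 0.11, adjusted p = 0.00748). On log2(FPKM + 1) they were -0.079 and -0.15 in control cells and not called, and the difference for FANCC was not called either (0.17). UBE2T had a log2 fold change of 0.12 ± 0.063 in control cells, not called, and -0.18 ± 0.065 in E5 cells, called lower. The E5 call was lost with total counts and on FPKM, and without library 2 (-0.18) or 3 (-0.17) of E5 vehicle or 1 (-0.18) or 2 (-0.14) of E5 FOLFIRINOX. The responses differed by -0.30 ± 0.091 (adjusted p = 0.022), a call that ended without library 1 (-0.29) or 2 (-0.28) of control vehicle, 3 (-0.27) of control FOLFIRINOX, 2 (-0.30) or 3 (-0.28) of E5 vehicle or 2 (-0.26) of E5 FOLFIRINOX. FANCM, the translocase that recognises the stalled fork, had wide errors and was not called in either line (-0.21 ± 0.22 and 0.29 ± 0.23).

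ERCC2 led the falls among the excision repair genes. In control cells it went from 32.8, 30.4 and 35.2 CPM to 18.5, 19.9 and 15.7 (log2 -0.87 ± 0.11, edgeR adjusted p = 2.80e-06). In E5 cells it went from 41.8, 34.6 and 33.4 to 24.9, 22.9 and 20.7 CPM (-0.66 ± 0.11, adjusted p = 6.64e-05). No libraries overlapped within a line. Its TFIIH partner ERCC3 had a log2 fold change of -0.057 ± 0.064 in control cells, not called, and -0.32 ± 0.065 in E5 cells, where it passed on counts but not on FPKM. The responses differed by -0.26 ± 0.091 (adjusted p = 0.0423), a call that ended without library 1 (-0.24) or 2 (-0.25) of control vehicle, 1 (-0.27) or 2 (-0.22) of control FOLFIRINOX, 1 (-0.22) or 2 (-0.27) of E5 vehicle or 1 (-0.28), 2 (-0.26) or 3 (-0.24) of E5 FOLFIRINOX.

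RPA1 fell in both lines, from 285, 272 and 288 to 193, 191 and 191 CPM in control cells (-0.55 ± 0.057) and from 237, 251 and 246 to 187, 180.4 and 165 in E5 cells (-0.46 ± 0.057). The other subunits had smaller changes. RPA2 had log2 fold changes of -0.012 ± 0.062 in control and -0.17 ± 0.063 in E5 cells, and RPA3 of -0.19 ± 0.069 and -0.20 ± 0.069. RPA2 was called in E5 cells and RPA3 in both lines, and these 3 calls ended with total count scaling and on FPKM. The RPA2 call also ended without library 1 (-0.16) of control FOLFIRINOX, 1 (-0.16), 2 (-0.19) or 3 (-0.17) of E5 vehicle or 2 (-0.15) or 3 (-0.14) of E5 FOLFIRINOX. Those for RPA3 ended without library 3 (-0.14) of control vehicle or 3 (-0.19) of control FOLFIRINOX in control cells and without library 2 (-0.15) of E5 vehicle or 2 (-0.18) of E5 FOLFIRINOX in E5 cells.

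XPA, the scaffold that checks the opened lesion, was the only excision repair gene called higher in both lines, while ERCC2, RPA1 and RPA3 were called lower in both. XPA went from 22.5, 19.8 and 21.6 to 33.3, 28.1 and 32.3 CPM in control cells (0.55 ± 0.11, adjusted p = 0.000418) and from 12.3, 16.2 and 16.9 to 19.4, 19.0 and 24.5 in E5 cells (0.44 ± 0.12, adjusted p = 0.00593). ERCC4 (XPF), the 5′ nuclease, rose by 0.25 ± 0.10 in control cells (adjusted p = 0.0383), a call lost without a filter on low counts, on FPKM and without library 3 (0.13) of control vehicle, 1 (0.25) or 3 (0.19) of control FOLFIRINOX or 2 (0.24) of E5 FOLFIRINOX. In E5 cells ERCC4 had 0.24 ± 0.10 (adjusted p = 0.055). Its partner ERCC1 did not pass in either line (-0.11 ± 0.089 and 0.12 ± 0.09). ERCC5, the 3′ nuclease, was not called (-0.072 ± 0.18 and -0.46 ± 0.20), and its counts are uncertain, since 63.3% of its exonic bases lie in BIVM or the read-through gene BIVM-ERCC5 on the same strand.

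ERCC6 (CSB) starts repair where RNA polymerase has stalled. In control cells it stood at 42.5, 47.5 and 38.2 CPM under vehicle and 46.7, 46.4 and 46.7 under FOLFIRINOX (log2 0.12 ± 0.084, adjusted p = 0.218). In E5 cells it stood at 106, 113 and 120.1 under vehicle and at 77.0, 87.1 and 86.4 under FOLFIRINOX (log2 -0.44 ± 0.079, adjusted p = 0.000202). All 6 E5 libraries lay above all 6 control libraries. The responses differed by -0.56 ± 0.12 (adjusted p = 0.00219).

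**Figure D3:**
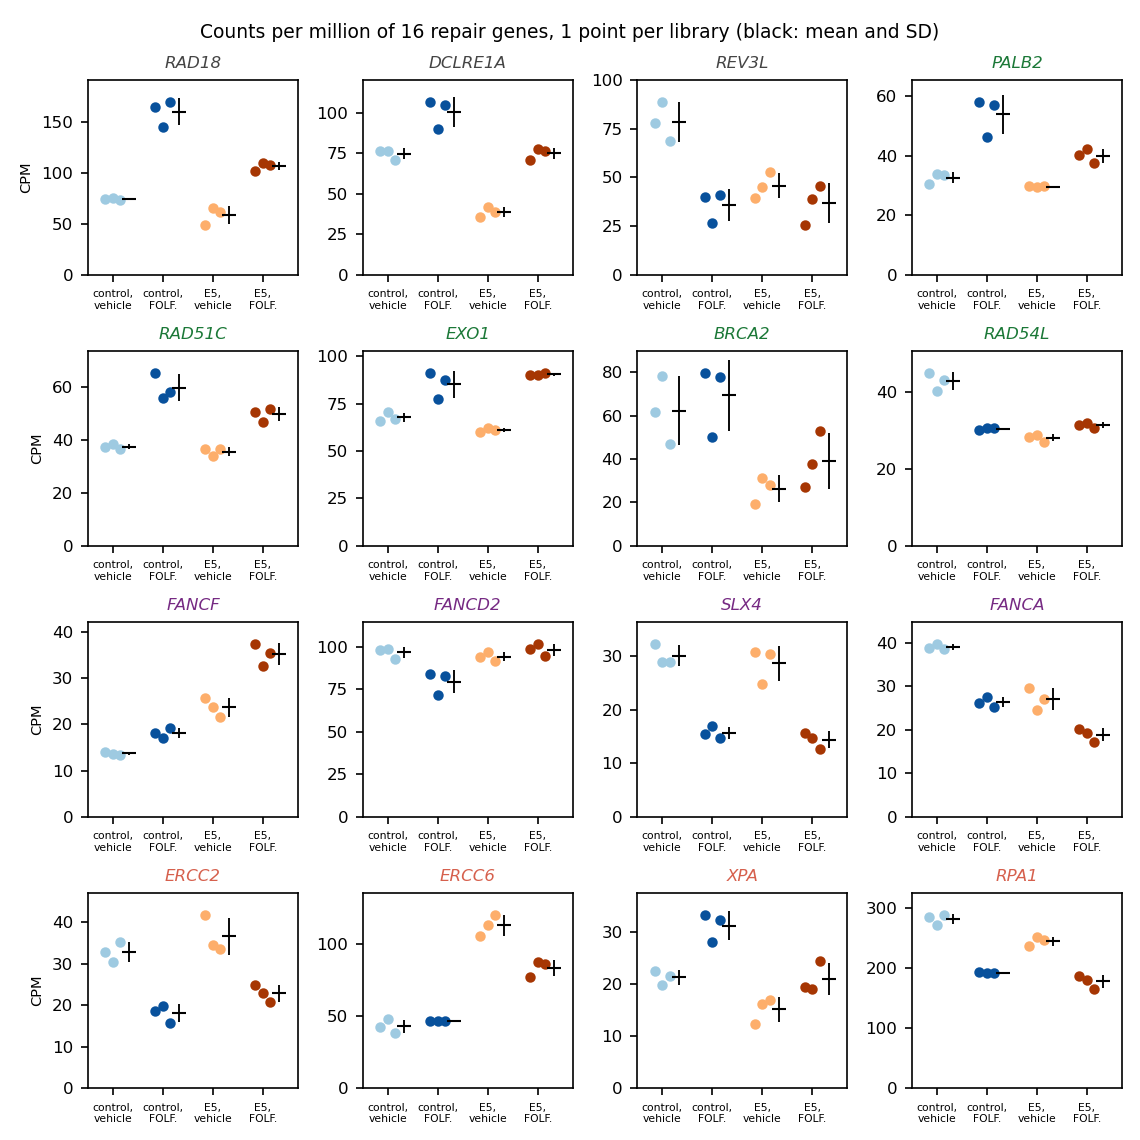
TMM-scaled CPM (y axis from 0) of 16 of the genes in each of the 12 libraries, with mean and SD of each group of 3 in black and title colours for the roles (green recombination, purple Fanconi, red excision repair, grey crosslink nuclease and bypass). RAD18, PALB2, RAD51C and EXO1 rise under FOLFIRINOX in both lines, SLX4 and ERCC2 fall in both, and ERCC6 is high in both E5 groups.

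The same pathways hold further genes, taken from lists beside the 39. Of all tested genes, FOLFIRINOX raised 32.6% and lowered 32.7% in control cells, and raised 25% and lowered 27.3% in E5 cells. Under FOLFIRINOX, 16 of 27 tested other recombination genes rose in control cells and 3 fell, and 14 rose and 1 fell in E5 cells, with medians of 0.32 and 0.27. SFR1, a recombinase accessory factor, had the largest change in control cells, at 1.62 ± 0.091 (log2, SE), and XRCC2, a paralogue partner of RAD51D, in E5 cells, at 1.17 ± 0.093. Other Fanconi genes split evenly, with 3 of 11 higher and 3 lower in control cells and 2 and 2 in E5 cells. FAAP100, of the core complex, had the largest change in control cells, at -1.71 ± 0.15, and USP1, which removes ubiquitin from FANCD2, in E5 cells, at 0.79 ± 0.12. Of 19 other excision repair genes, 5 rose and 5 fell in control cells, and 5 rose and 8 fell in E5 cells. LIG1, the replicative DNA ligase, had the largest change in both, at -1.34 ± 0.091 and -1.10 ± 0.092.

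The next lists stand beside the same shares of all tested genes, 32.6% higher and 32.7% lower in control cells and 25% and 27.3% in E5 cells. Other bypass genes rose in 5 of 11 and fell in 4 in control cells, and rose in 5 and fell in 1 in E5 cells. POLK, a bypass polymerase, had the largest change in both, at 0.61 ± 0.17 and 1.12 ± 0.17. End joining genes rose in 6 of 14 and fell in 4 in control cells, and rose in 8 and fell in 2 in E5 cells. APLF, an end joining scaffold, had the largest change in control cells, at 1.81 ± 0.17, and TP53BP1, which restrains end trimming, in E5 cells, at -1.23 ± 0.075. Checkpoint genes rose in 3 of 11 and fell in 4 in control cells, and rose in 1 and fell in 3 in E5 cells. ATR, the kinase of replication stress, had the largest change in both, at -0.79 ± 0.14 and -0.47 ± 0.14.

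Without drug, more of the repair genes were lower than higher in E5 cells. Of the 39, 18 were lower, 3 higher and 18 not called in E5 against control cells, against 22.2% lower and 22.1% higher of all tested genes. At least 1.5-fold, 7 were lower and 2 higher, against 9.8% and 11.6%. Of the recombination genes, 10 of 15 were lower and 0 higher, with a median log2 fold change of -0.47, against -0.0089 over all tested genes. At an unadjusted p under 0.05 edgeR had 11 lower and 0 higher, and DESeq2 called 10 lower and 0 higher. Over all 25 settings tried, 8 to 11 were lower and 0 higher. With the GC correction 10 were still called lower, but the median moved to -0.25. All 3 crosslink nuclease and bypass genes were lower. Fanconi genes were lower in 3 of 11, or 1 of 11 without library 2 of control vehicle or 1 of E5 vehicle, and higher in 1 (median -0.11), and excision repair genes lower in 2 of 10 and higher in 2 (median 0.06).

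BRCA2, which loads the recombinase, was the recombination gene with the largest difference. Its libraries stood at 61.7, 78.6 and 46.9 CPM in control cells and 19.4, 31.4 and 27.9 in E5 cells under vehicle, 2.33-fold lower in E5 (log2 -1.22 ± 0.24, edgeR adjusted p = 0.000503). Under FOLFIRINOX they stood at 79.9, 50.3 and 78.0 and 27.3, 37.5 and 52.8 CPM, where the highest E5 library passed the lowest control library (log2 -0.82 ± 0.23, adjusted p = 0.00584). The authors' FPKM gave 6.24 ± 1.80 and 2.49 ± 0.521 under vehicle. The call under FOLFIRINOX ended on FPKM with libraries centred on their median, at -0.71.

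RBBP8, which starts end trimming, stood at 128, 132 and 123 CPM in untreated control cells and 69.0, 83.4 and 82.9 in untreated E5 cells (-0.70 ± 0.11). BLM stood at 51.7, 50.7 and 43.8 and 28.8, 35.8 and 33.3 CPM (-0.56 ± 0.088). For both genes the lines did not overlap under vehicle or under FOLFIRINOX (-0.45 ± 0.10 and -0.49 ± 0.086). RAD54L was -0.60 ± 0.07 (log2) under vehicle, RAD50 -0.68 ± 0.18 and RAD51AP1 -0.51 ± 0.091. BRIP1, NBN, MRE11 and BRCA1 were lower with log2 fold changes from -0.47 to -0.27. The call for NBN ended without library 2 (-0.39) of control vehicle or 1 (-0.32) of E5 vehicle, and that for BRCA1 on FPKM and without library 1 (-0.26) or 2 (-0.21) of control vehicle or 1 (-0.20) of E5 vehicle. PALB2, RAD51C, RAD51D, BARD1 and EXO1 were not called under vehicle, between -0.15 and 0.15.

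Outside recombination, DCLRE1A was 1.92-fold lower in untreated E5 cells (log2 -0.94 ± 0.082, edgeR adjusted p = 4.83e-08). FANCA was lower at 29.7, 24.6 and 27.0 CPM against 38.8, 39.8 and 38.6 in control cells (-0.54 ± 0.083), and XPA at 12.3, 16.2 and 16.9 against 22.5, 19.8 and 21.6 (-0.46 ± 0.12). FANCM was lower (log2 -0.66 ± 0.23, adjusted p = 0.0268), a call that DESeq2 and FPKM did not make and that ended without library 1 (-0.63) or 2 (-0.48) of control vehicle or 1 (-0.51) of E5 vehicle. FANCL (-0.29 ± 0.095) and RPA1 (-0.20 ± 0.057) were called lower on counts but not on FPKM, and the FANCL call ended without library 2 (-0.28) of control vehicle or 1 (-0.25) or 2 (-0.28) of E5 vehicle.

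The genes higher in untreated E5 cells were ERCC6, FANCF and ERCC3. ERCC6 was 2.64-fold higher (log2 1.40 ± 0.083, adjusted p = 3.03e-10), the largest difference between the lines among the 39 and opposite in sign to BRCA2. FANCF was 1.73-fold higher (0.79 ± 0.092, adjusted p = 2.11e-06). ERCC3 was higher by 0.18 ± 0.065 (adjusted p = 0.0354), a call that ended with total count scaling, with the replicate block and without library 1 (0.16) or 2 (0.16) of control vehicle or 1 (0.13) or 2 (0.18) of E5 vehicle.

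**Figure D4:**
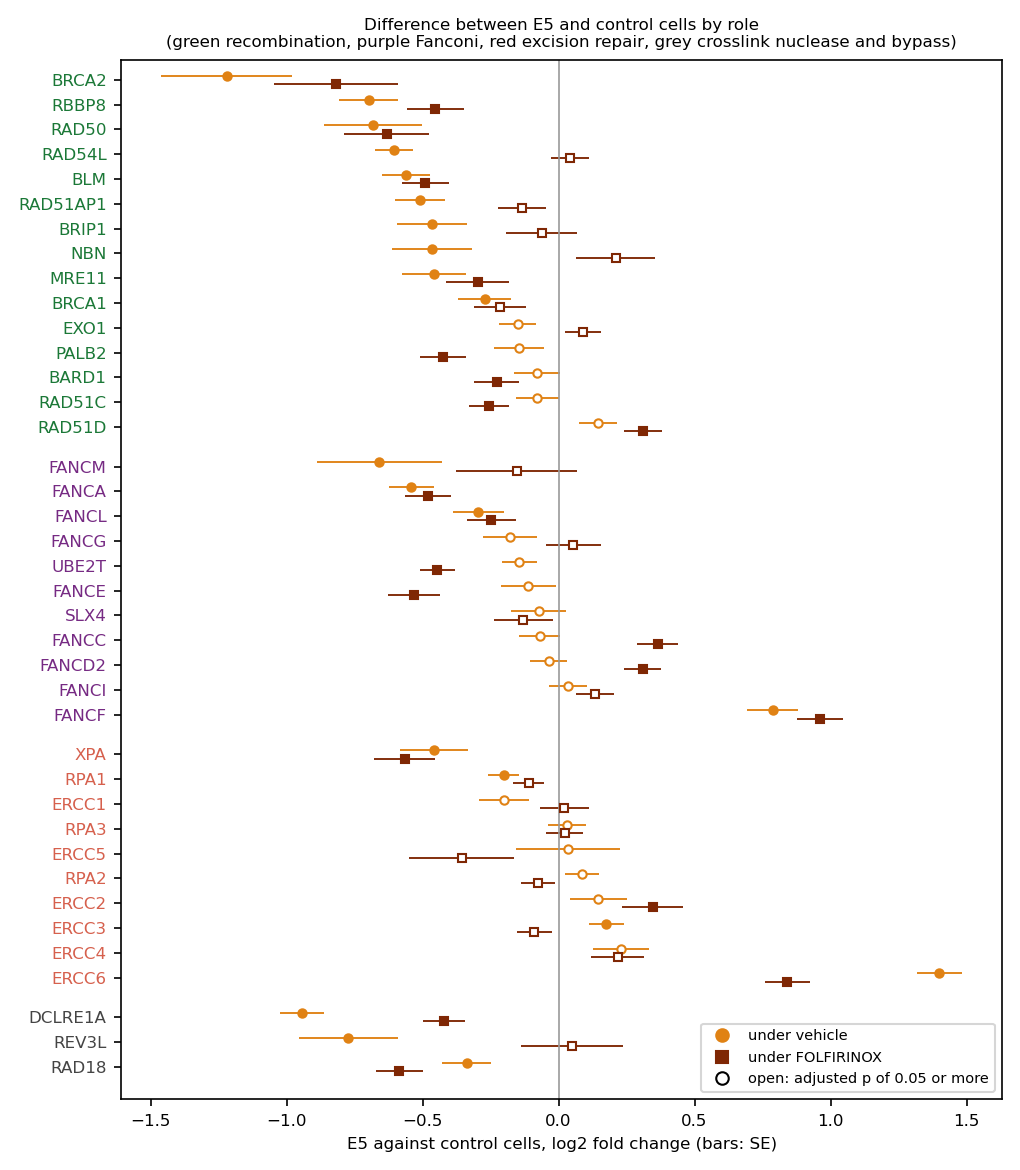
Log2 fold change of E5 against control cells under vehicle (circles) and under FOLFIRINOX (squares) for the 39 genes by role, with SE bars and open symbols where the adjusted p is 0.05 or more. The green recombination genes lie left of 0 under vehicle except RAD51D, at 0.15, and ERCC6 and FANCF lie to the right under both treatments.

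Under FOLFIRINOX, 15 of the 39 genes were lower in E5 cells and 6 higher, against 27.6% and 26.7% of all tested genes. At least 1.5-fold, 3 were lower (BRCA2, RAD50 and RAD18) and 2 higher (FANCF and ERCC6), against 13.3% and 13.9%. On log2(FPKM + 1) the 39 split into 18 lower and 3 higher, and with the GC correction into 17 lower and 10 higher. Of the recombination genes 8 of 15 were lower and 1, RAD51D, higher, with a median log2 fold change of -0.23. Without library 1 of control FOLFIRINOX 5 of them were lower, and without library 3 of that group 6, with a median of -0.14. Fanconi genes were lower in 4 of 11 and higher in 3, and excision repair genes lower in 1 of 10, XPA, and higher in 2, ERCC2 and ERCC6. The ERCC2 call was lost with total counts, on FPKM and without library 3 (0.25) of control FOLFIRINOX or 1 (0.28) of E5 FOLFIRINOX. Under both treatments 10 genes were lower in E5 cells, namely BRCA2, BLM, RBBP8, MRE11, RAD50, FANCA, FANCL, XPA, DCLRE1A and RAD18. Of these, the FOLFIRINOX call for MRE11 ended without library 1 (-0.29) of control vehicle, 1 (-0.26) or 3 (-0.18) of control FOLFIRINOX or 1 (-0.23) or 2 (-0.28) of E5 FOLFIRINOX, and that for FANCL without library 1 (-0.22) or 3 (-0.19) of control FOLFIRINOX or 1 (-0.18) or 2 (-0.20) of E5 FOLFIRINOX. Both FANCF and ERCC6 were higher under both. The shares of all tested genes called under both treatments were not counted, so these counts cannot be set against the background.

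Other differences were called under 1 treatment. The share of all tested genes called under only 1 treatment was not counted, so these counts cannot be set against the background either. Under vehicle, 8 genes were called lower in E5 cells that were not called under FOLFIRINOX: BRCA1, RAD51AP1, RAD54L, BRIP1, NBN, FANCM, RPA1 and REV3L. Under FOLFIRINOX their log2 fold changes lay between -0.22 and 0.21. The difference between the 2 line effects is the same interaction as that between the drug responses. It passed for RAD51AP1, RAD54L, NBN and REV3L and did not pass for BRCA1, BRIP1, FANCM and RPA1 (adjusted p from 0.115 to 0.804). PALB2, RAD51C and BARD1 were called lower under FOLFIRINOX and not under vehicle, with log2 fold changes of -0.42 ± 0.085, -0.26 ± 0.073 and -0.23 ± 0.084, and their interactions did not pass. The RAD51C call ended without library 1 (-0.18) of control FOLFIRINOX, and the BARD1 call on FPKM and without library 1 (-0.22) or 3 (-0.14) of control FOLFIRINOX or 1 (-0.16) or 2 (-0.22) of E5 FOLFIRINOX. RAD51D was higher under FOLFIRINOX (0.31 ± 0.069) but not on FPKM.

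Among the Fanconi genes, UBE2T and FANCE were lower in E5 cells under FOLFIRINOX (log2 -0.45 ± 0.064 and -0.53 ± 0.10) and not called under vehicle (-0.14 and -0.11). FANCD2 and FANCC were higher in E5 cells under FOLFIRINOX, by 0.31 ± 0.068 and 0.36 ± 0.076, and not called under vehicle (-0.037 and -0.069). The FANCC call was lost on FPKM.

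The interaction test compares the FOLFIRINOX response of E5 cells with that of control cells. It called 7 of the 39 genes higher and 4 lower, against 13.3% and 12.4% of all tested genes, shares near the background. By role these were 3 of 15 recombination genes (RAD51AP1, RAD54L and NBN), all with the higher response in E5 cells, 2 Fanconi genes with the higher (FANCC and FANCD2) and 2 with the lower response (FANCE and UBE2T). The other 4 were ERCC3 and ERCC6, with the lower, and DCLRE1A and REV3L, with the higher response in E5 cells. FANCD2, ERCC6 and DCLRE1A were called in every setting tried and the other 8 were not. RAD51AP1 lost its call without library 1 (0.38) or 2 (0.35) of control vehicle, 2 (0.32) of control FOLFIRINOX, 1 (0.30) of E5 vehicle or 3 (0.29) of E5 FOLFIRINOX, and NBN without library 1 (0.66) or 2 (0.60) of control vehicle or 3 (0.58) of E5 FOLFIRINOX. The RAD54L and FANCC calls were lost on FPKM and held whichever library was left out. On log2(FPKM + 1) the calls for RAD51AP1 and NBN were lost as well. The count of 11 fell to 6 without library 1 and to 5 without library 2 of control vehicle, to 7 without library 2 of E5 vehicle and to 6 without library 3 of E5 FOLFIRINOX.

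Cell cycle markers and other repair lists are set beside 22.2% of all tested genes lower and 22.1% higher in untreated E5 cells. S phase markers were lower in 15 of 20 and higher in 1, and G2 and mitosis markers lower in 12 of 19 and higher in 1, with medians of -0.23 and -0.31. Other recombination genes were lower in 13 of 27 and higher in 1 (median -0.28), led by DNA2, a resection nuclease, at -1.16 ± 0.096. Checkpoint genes were lower in 8 of 11 and higher in 0 in edgeR, with a median of -0.39, led by ATR at -0.85 ± 0.14. End joining genes were lower in 4 of 14 and higher in 1, led by SHLD2 at -1.15 ± 0.12, with a median of -0.07. Other bypass genes were lower in 5 of 11 and higher in 2 (median -0.30), other Fanconi genes lower in 3 of 11 and higher in 1 (median -0.02), and other excision repair genes lower in 3 of 19 and higher in 2 (median -0.09). Under FOLFIRINOX the G2 and mitosis markers were lower in E5 cells in 18 of 19, and the S phase markers lower in 7 of 20 and higher in 5. Their part in the recombination genes' differences was not tested.

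Genes lying near some of the members were also more often lower than higher in untreated E5 cells, where 22.2% of all tested genes were lower. DCLRE1A lies at chr10:113834725-113854383 on chromosome 10 in GRCh38. Of 42 tested genes within 5 Mb, 26 were lower and 4 higher in untreated E5 cells, with a median log2 fold change of -0.54. FANCA lies at chr16:89737549-89816657 on chromosome 16, where 33 of 61 neighbours were lower and 1 higher, with a median of -0.36. ERCC6, at chr10:49454168-49539538 on chromosome 10, went against its neighbours, of which 17 of 35 were lower and 5 higher (median -0.32). For BRCA2, at chr13:32315086-32400268 on chromosome 13, 10 of 35 were lower and 5 higher, with a median of -0.086. Near RPA1 41 of 111 genes were lower and 11 higher (median -0.21), and near FANCM 8 of 25 were lower and 2 higher (median -0.23). Near some other members that were lower in untreated E5 cells the balance was reversed. Of 54 genes near RAD18, 5 were lower and 22 higher, of 52 near REV3L 8 and 19, and of 102 near RAD51AP1 14 and 29. The 5 Mb window was chosen with the line effects known, and the part of neighbouring genes in these differences was not tested.

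Among the 39 genes, those with AT-rich transcripts had the larger errors, with a Spearman rho of -0.51 between GC content and the SD within groups. Over all 13486 genes of at least 1 CPM the rho was 0.07. Within each group 1 library was low for AT-rich transcripts: library 3 of control vehicle, 2 of control FOLFIRINOX, 1 of E5 vehicle and 1 of E5 FOLFIRINOX. In each of these 4 libraries, all 10 members with a transcript GC content under 40% lay below their group's mean. Across the 13486 genes, each library's deviation from its group mean had a Spearman rho with GC content of 0.52, 0.70, 0.56 and 0.30 in those 4 libraries, as a description, and of 0.32 in library 2 of E5 FOLFIRINOX. BRCA2, with a GC content of 36.3%, deviated by -0.38, -0.43, -0.40 and -0.47 (log2) in them.

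Over the 39 genes the SD within groups ranged from 0.049 (log2) for RAD54L to 0.40 for BRCA2 and 0.39 for FANCM, with a median of 0.11 against 0.13 over the 13486 genes. The members' log2 fold changes had a Spearman rho with GC content of -0.33 and -0.52 in the drug comparisons of control and E5 cells, and of 0.49 and 0.28 in the line comparisons under vehicle and FOLFIRINOX (n = 39, genes being no independent replicates). Over all 13486 genes these were -0.13, -0.28, 0.20 and 0.064. A per-library GC correction was fitted to each library's deviation from the mean of all 12 libraries. It therefore also removed GC-related differences between groups. With it, the calls under FOLFIRINOX were 12 higher and 15 lower in control cells. In E5 cells they were 12 higher and 15 lower, where they had been 10 and 10. Between untreated lines they were 3 higher and 19 lower, and between lines under FOLFIRINOX 10 higher and 17 lower. For the difference of the responses they were 8 higher and 7 lower. This correction cannot separate library bias from differences between groups, and the part of base composition in these results was not tested otherwise.

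**Figure D5:**
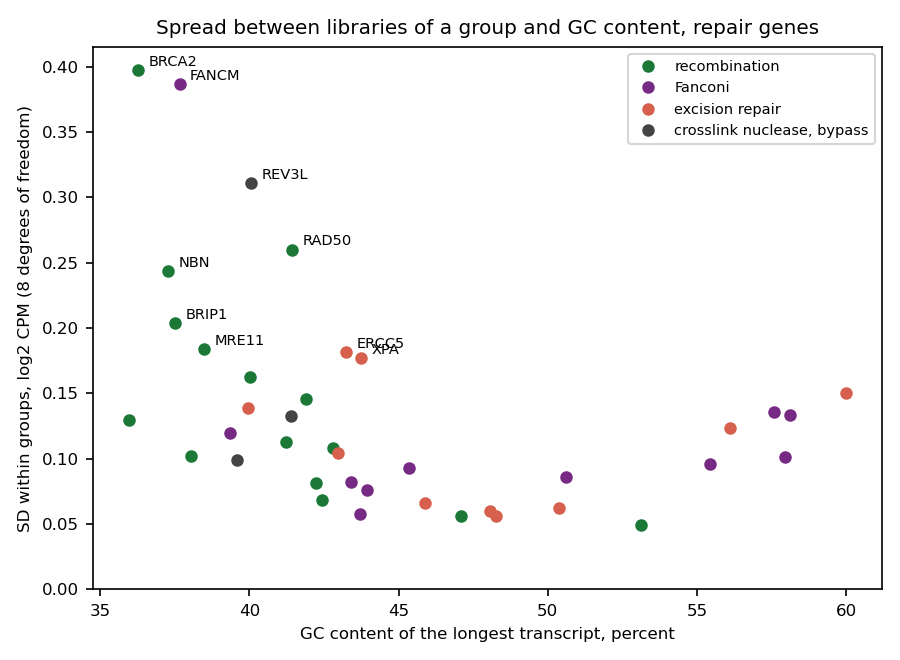
Within-group SD of log2 CPM (y axis, 12 libraries in 4 groups) against the GC content of the longest GENCODE v29 transcript (x axis, percent), 1 point per gene, coloured by role. BRCA2, FANCM, REV3L, RAD50 and NBN, all under 42% GC, have the widest spread, from 0.24 to 0.40.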

How the data were processed

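RNA from KP4 cells was measured in 4 GEO samples, whose 12 columns, 3 per sample and matched by column name, were analysed as 4 groups of n = 3. Per the submitters' processing notes, reads were handled with Trimmomatic and STAR (2.5.1b) on GRCh38. The deposited read counts are strand-specific per the file headers and entered the tests unchanged. The authors' FPKM values are scaled by length and depth, and the authors' rlog values are regularised log2 counts per the file headers. The steps that made them were not given in the sources used here. Members, roles and lists were chosen with earlier results of these data known.

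Counts were fitted with edgeR 4.0.16 (TMM, filterByExpr, group means, quasi-likelihood F test, Benjamini-Hochberg adjustment over 15636 genes, threshold 0.05), and the SE is the absolute log2 fold change over the root of F. The second rule adds a fold change of at least 1.5. Alternatives were other scalings and filters, DESeq2 1.42.0, limma 3.58.1 on log2(FPKM + 1), log2(FPKM + 0.1) and rlog values, a replicate block and leaving out each library. Centred FPKM and a lowess correction for transcript GC content, which 99.1% of tested genes had, were added after seeing the data. Every member is described, and from each other list the called genes with the largest changes were named. Rows that name no gene were left out, and 2.86 to 3.20% of reads were ambiguous between genes. The edgeR script was tested on simulated data.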

Additional observations from a re-analysis of the deposited data

Results flagged for a closer look

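The FOLFIRINOX response differed between the lines for 11 of the 39 genes by edgeR's interaction test (adjusted p under 0.05, values as log2, E5 minus control cells, with SE). These were 7 higher and 4 lower, against 13.3% and 12.4% of all tested genes. Both shares lie near the background, so the counts do not set the repair genes apart. Only FANCD2, ERCC6 and DCLRE1A kept the call under every setting run. The response was more positive in E5 cells for REV3L (0.82 ± 0.26), NBN (0.68 ± 0.21), RAD54L (0.65 ± 0.10), DCLRE1A (0.52 ± 0.11), FANCC (0.43 ± 0.11), RAD51AP1 (0.37 ± 0.13) and FANCD2 (0.35 ± 0.10). It was more negative in E5 cells for ERCC6 (-0.56 ± 0.12), FANCE (-0.42 ± 0.14), UBE2T (-0.30 ± 0.091) and ERCC3 (-0.26 ± 0.091). Adjusted p-values ran from 0.000165 for RAD54L to 0.0423 for ERCC3. On counts, RAD54L, REV3L, NBN, FANCC and FANCD2 fell in control cells and were not called in E5 cells. On FPKM, the treated FANCD2 libraries lay above the vehicle libraries in E5 cells and overlapped them in control cells. FANCE rose in control cells and was not called in E5 cells. ERCC3, ERCC6 and UBE2T fell in E5 cells and were not called in control cells, and DCLRE1A and RAD51AP1 rose in both.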

How the results depend on the processing

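Counts of called members stayed within 1.5 times the reported count in the other 4 comparisons under every setting run. For the difference of responses, 11 members became 7 on log2(FPKM + 1), 7 on log2(FPKM + 0.1) and 5 on centred FPKM, and between 5 and 10 when 1 library was left out. The cause was not tested. Among members called with or without the change, on FPKM the log2 fold changes of FOLFIRINOX in control cells turned positive for ERCC1 (0.25 with either pseudocount), ERCC3 (0.23 and 0.24 with pseudocounts 1 and 0.1) and ERCC5 (0.49, 0.51 and, centred, 0.38). Those of E5 against control cells under FOLFIRINOX turned for RAD54L (-0.35 and -0.37), RAD51D (-0.0058 and -0.0064) and, centred, BARD1 (0.038). Calls kept under every setting were 14 of 25 and 16 of 20 for FOLFIRINOX in control and E5 cells, 15 of 21 and 12 of 21 between the lines under vehicle and FOLFIRINOX, and 3 of 11 for the difference. Of 18 correlations between deviations of same-numbered libraries, 5 were over 0.1, with a range from -0.30 to 0.23. These deviations, from group means of few libraries and related to GC content, cannot decide whether column numbers pair the libraries. With the replicate block 23, 20, 20, 21 and 10 members were called. Library depth was 7359034 to 21775030 gene reads. Low counts limit the results for ERCC5 and RAD50, at 17 to 50 and 49 to 417 reads per library. These genes share 63.3% and 79.7% of their exonic bases with genes on the same strand. The parts of depth and of ambiguous reads in their low counts were not tested.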
